A study of Mus musculus with 43 samples.

Results

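The collagens and laminins are 54 protein-coding genes, 43 encoding collagen chains and 11 encoding laminin chains, among the 56980 genes counted in 43 libraries of sorted mouse L2/3 cortical neurons. They were chosen by symbol, as the protein-coding genes named Col, number, a, number or Lam, letter (a, b or c), number, with Col26a1 left out. The rule itself uses no measured value, but it was set with earlier results of these data known. Collagen chains assemble into triple helices that build fibrils, basement membrane networks or chains anchored in the plasma membrane, and alpha, beta and gamma laminin chains assemble into cross-shaped heterotrimers that start a basement membrane. In the brain, basement membranes lie under the endothelium of blood vessels and at the pial surface, where collagen IV and laminins are laid down by endothelial cells, mural cells, astrocyte endfeet and meningeal fibroblasts. Some members also have neuronal roles, in axon guidance, synapse organization and as transmembrane collagens.

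The study asked how CUX1 and CUX2, homeodomain transcription factors of upper-layer neurons, and sex shape these cells. All mice were C57BL/6JRccHsd, and in all of them progenitors of L2/3 neurons in the somatosensory cortex were labelled with GFP by in utero electroporation before GFP+ cells were isolated by FACS. WT, germline Cux1 ΔC/ΔC and Cux2 -/- mice received the pCAG-GFP plasmid. The Cux1 KO neurons at P4 came instead from Cux1 f/Δ23 mice given pCAG-iCre with the CRE-dependent pCALNL-GFP, so that exon 23 was removed in the electroporated cells only, in an animal already heterozygous for the deletion. Allele, plasmid and age of the Cux1 KO therefore change together between E19 and P4 and cannot be told apart. At P4 only the Cux1 KO group carried CRE and the CRE-dependent plasmid, so in its comparisons with WT and Cux2 KO genotype and plasmid cannot be told apart either. The groups were WT, Cux1 KO and Cux2 KO females and males at embryonic day 19 (E19, 4 libraries each), both sexes of WT and of Cux2 KO at postnatal day 4 (P4, 3 each), Cux1 KO males at P4 (2) and WT females (2) and males (3) at P7. Sequencing took place in 2 rounds, E19 in one and the postnatal stages in the other, so stage and round cannot be told apart between E19 and P4. The labels name no separate animals, so p-values measure the spread between these samples, which may be technical.

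Library totals ran from 13321095 to 60559585 counts. At least 1 count was found for 43 to 51 of the 54 genes per library at E19, for 37 to 45 at P7 and for 28 to 44 in WT and Cux2 KO at P4, but for only 22 and 26 in the 2 Cux1 KO libraries at P4. Those 2 also had the fewest genes of any kind (17049 and 19115, against 20844 to 23736 in the other P4 libraries), with totals of 19499125 and 40421655. The study notes that Cux1 KO neurons were lost more than WT neurons while the tissue was taken apart, and the part of this in these libraries was not tested. Markers of upper-layer excitatory neurons, which check the label, summed to 3862 to 6249.8 CPM (read counts scaled to library size with TMM normalization) at E19, 848 to 1354 in WT and Cux2 KO at P4, 1434 to 1933 in Cux1 KO at P4 and 487 to 668 at P7. Endothelial markers were present in every library and summed to 4.1 to 76, 63.8 to 268, 13.2 to 46.5 and 72.4 to 337 CPM in the same order. Astrocyte and radial glia markers summed to 2070.1 to 3426, 4759.6 to 9347, 5711 to 8656 and 9629.6 to 12572 CPM in that order. They exceeded the neuron sums at P4 and P7. Oligodendrocyte lineage markers summed to 402 to 964, 738 to 3689.9, 1281 to 1404 and 4009.9 to 5820 CPM. These lists hold different genes, so the sums do not give shares of cells. Levels given for neurons below are those of the sorted samples as a whole. Gene-wide counts of a targeted gene overlapped between its own KO and WT in each sex and stage compared, and the deleted parts cannot be seen in them. Cux1 stood at 83.2 and 168 CPM in Cux1 KO males at P4 and 88.1 to 157 in WT males. In E19 females Cux1 averaged 312 CPM in Cux1 KO and 423 in WT. Cux2 stood at 35.6 to 60.5 CPM in Cux2 KO males at P4 and 31.4 to 46.4 in WT males, but at 80.4 to 96.6 in Cux1 KO males.

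The highest level in WT neurons was that of a collagen IX chain, Col9a3, followed by the laminin chain Lamb2. To compare genes, CPM were divided by the length of each gene's exons in kb. Col9a3, a chain of the fibril-associated collagen IX, was the highest of the 54 at each stage, at 11.6 ± 1.81 CPM per kb at E19 (SD, n = 8), 5.81 ± 2.35 at P4 (n = 6) and 14.6 ± 4.77 at P7 (n = 5). Lamb2, the laminin beta chain of mature basement membranes and synaptic laminins, followed at 7.82 ± 1.78, 4.46 ± 2.0 and 5.54 ± 0.381 CPM per kb. Lamc1, the gamma chain of most laminins, stood at 6.42 ± 0.765, 2.81 ± 0.671 and 4.23 ± 0.634 CPM per kb. The ranges of Col9a3 and Lamb2 over libraries overlapped at E19 and P4 and not at P7, and those of Lamb2 and Lamc1 overlapped at every stage. These ranges do not compare the genes within each library, so they do not test the order of the means. The chains of the ubiquitous collagen IV trimer lay close together, with Col4a1 at 3.49 ± 1.37, 2.01 ± 0.88 and 4.55 ± 2.25 CPM per kb and Col4a2 at 3.18 ± 0.887, 1.98 ± 0.892 and 2.85 ± 1.28. Of the marker chains, Lama4, the laminin alpha chain of vessels, ranked below these at 0.254 ± 0.121, 1.11 ± 0.419 and 1.29 ± 0.473 CPM per kb, and Col1a2, the second chain of fibrillar collagen I, at 0.728 ± 0.234, 0.975 ± 0.805 and 1.3 ± 0.334. Each of the 54 genes had more than 3 counts in at least 1 library, but only 17 had a count in all 43. In WT libraries Col10a1, Col15a1, Col17a1, Col24a1, Col25a1, Col6a1, Col6a5 and Lamc3 had 0 counts in all 6 at P4, and Col10a1, Col6a3 and Col6a6 in all 5 at P7. A count of 0 allows up to 3 counts in a library, and this floor, like the intervals given with count ratios, covers counting error only.

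**Figure D1:**
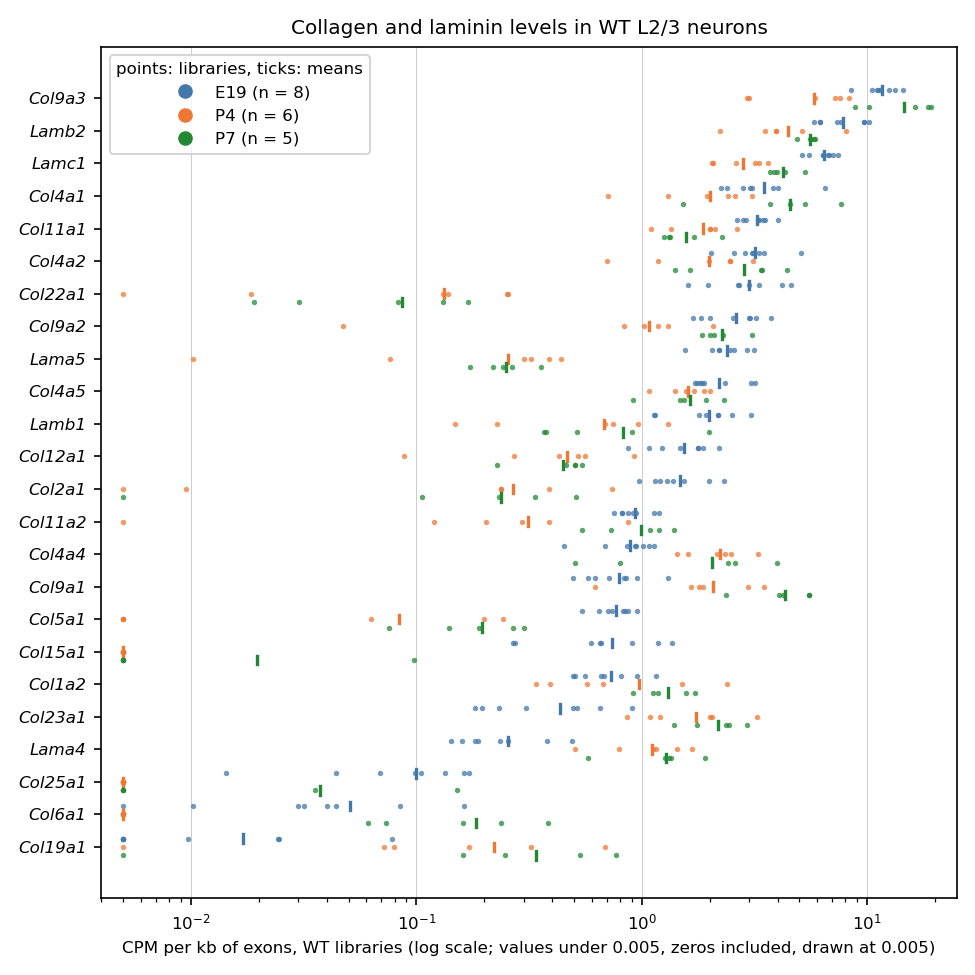
Level of the 24 named collagens and laminins in each WT library, as CPM per kb of exons on a log axis, with E19 (n = 8), P4 (n = 6) and P7 (n = 5) in separate colours, points for libraries and ticks for means. Values under 0.005, zeros included, are drawn at 0.005, and Col9a3 heads the order with means of 11.6, 5.81 and 14.6 CPM per kb.

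Collagen IV genes lie in head-to-head pairs. Col4a1 (ENSMUSG00000031502, GRCm39 chromosome 8, 11248423 to 11362826, minus strand) and Col4a2 (ENSMUSG00000031503, chromosome 8, 11362471 to 11499287, plus strand) share 318 bases of their annotated canonical transcripts (chromosome 8, 11362509 to 11362826), and Col4a3 (chromosome 1, 82564642 to 82699780) and Col4a4 (chromosome 1, 82426144 to 82564800) also overlap at their starts. The strand setting of the counting is not given in the sources used here, so reads in the shared bases cannot be assigned with certainty. Col9a1 (chromosome 1, 24216691 to 24291765) and Col19a1 (chromosome 1, 24296772 to 24627011) are neighbours on chromosome 1. The other type IX chains are apart, with Col9a2 at chromosome 4, 120896582 to 120912523, and Col9a3 at chromosome 2, 180239583 to 180264063. Lama5 lies at chromosome 2, 179818166 to 179867712.

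Between E19 and P4, 11 collagens and laminins fell in WT neurons and 5 rose. The falls included 3 fibrillar collagens and 3 laminin chains, the rises included Lama4, and non-fibrillar collagens went both ways. The summed level of the 54 genes was 459 to 612 CPM (median 542) at E19 and 200.1 to 455 (median 305) at P4, with no overlap of the 8 and 6 libraries, and stood at 373 to 540.1 (median 420.5) at P7. In a model of both sexes, with sex as a covariate, 16 of the 42 members tested were called, that is, they had an adjusted p under 0.05 in edgeR's quasi-likelihood test together with a log2 fold change beyond 1 in either direction, 5 higher and 11 lower at P4. That is 38.1% of them, below the 45.9% of all tested genes that passed, so the number of calls does not mark these genes out from the rest. Their median log2 fold change was -1.01, against 0.04 over all genes.

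Of the fibrillar collagens, which form the cable-like fibrils of connective tissue, 3 of 10 tested fell and none rose. Col2a1, the chain of cartilage collagen II, was at 9.12 to 21.8 (median 12.5) CPM at E19 and 0 to 6.9 (median 2.22) at P4, a log2 fold change of -2.5 ± 0.84 (SE), adjusted p = 0.0158. Col5a1, a chain of the fibril-nucleating collagen V, was at 4.72 to 8.3 (median 6.79) and 0 to 2.1 (median 0.274) CPM (log2 fold change -3.54 ± 1.00 (SE), adjusted p = 0.00572). The libraries of the stages did not overlap for either gene. Col11a2, a chain of collagen XI, went from 5.59 to 8.87 (median 6.63) to 0 to 6.48 (median 1.85) CPM (log2 fold change -1.88 ± 0.69 (SE), adjusted p = 0.0248), with overlap. Col11a1, its partner chain, was at 33.7 to 51.3 (median 42.2) and 14.1 to 33.8 (median 25.8) CPM, with a log2 fold change of -0.78 that passed on p (adjusted p = 0.00144) but not on size. Col1a2 did not pass, with 6.24 to 14.7 (median 8.5) and 4.31 to 30.0 (median 7.84) CPM (log2 fold change 0.29 ± 0.38 (SE), adjusted p = 0.52).

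Among the fibril-associated collagens, which sit on the surface of fibrils, 3 of 9 fell and 2 rose. Col22a1, of collagen XXII at tissue junctions, fell furthest, from 15.3 to 43.8 (median 27.1) CPM at E19 to 0 to 2.44 (median 1.29) at P4 (log2 fold change -4.76 ± 0.72 (SE), adjusted p = 3.38e-05). Every P4 library was below every E19 library for Col22a1. Col12a1, of collagen XII, fell from 13.3 to 33.6 (median 24.8) to 1.35 to 14.1 (median 7.25) CPM (log2 fold change -1.73 ± 0.40 (SE), adjusted p = 0.0014). The chains of collagen IX moved apart. Col9a1 rose from 2.52 to 6.65 (median 3.92) to 3.15 to 17.7 (median 9.3) CPM (log2 fold change 1.32 ± 0.30 (SE), adjusted p = 0.00137), Col9a2 fell from 5.22 to 11.6 (median 8.56) to 0.146 to 6.4 (median 3.4) (log2 fold change -1.28 ± 0.51 (SE), adjusted p = 0.0374), and Col9a3 was lower in every P4 library, at 13.3 to 37.7 (median 29.6) CPM against 38.1 to 65.1 (median 51.1), but with a log2 fold change of -0.99 that fell just short of 1 (adjusted p = 0.00188). Col19a1, of a collagen tied to synapse formation, rose from 0 to 0.991 (median 0.0621) to 0 to 8.74 (median 1.6) CPM (log2 fold change 3.87 ± 1.14 (SE), adjusted p = 0.00777), from 4 E19 libraries at 0 counts. The libraries overlapped for Col9a1, Col9a2, Col12a1 and Col19a1.

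The network-forming and transmembrane collagens split. Col4a4, of the collagen IV trimer of specialised basement membranes, rose from 5.19 to 12.9 (median 10.7) to 16.3 to 37.5 (median 25.7) CPM (log2 fold change 1.34 ± 0.21 (SE), adjusted p = 5.55e-05), every P4 library lying above every E19 library. Col4a1, Col4a2 and Col4a5 stood at 5.28 to 23 (median 16.3), 5.03 to 22.2 (median 15.9) and 10.1 to 18.6 (median 15.2) CPM at P4 against 16.8 to 48.6 (median 22.8), 14.5 to 36.4 (median 22.1) and 16 to 29.6 (median 17.4) at E19, with log2 fold changes of -0.86, -0.71 and -0.45 that did not reach 1 (adjusted p = 0.0146, 0.0263 and 0.0513). Col23a1, a transmembrane collagen, rose from 1.08 to 5.38 (median 2.37) to 5.09 to 19.1 (median 9.47) CPM (log2 fold change 2.02 ± 0.41 (SE), adjusted p = 0.000499). Col25a1, a transmembrane collagen of neurons, was at 0.186 to 2.23 (median 1.32) CPM at E19 and had 0 counts in all 6 P4 libraries, at least 15.9-fold lower by the floor of 3 counts per library (adjusted p = 3.49e-05). Col15a1, a multiplexin of vessel basement membranes, was at 1.86 to 9.41 (median 4.55) CPM at E19 and likewise at 0 at P4, at least 62.7-fold lower (adjusted p = 1.31e-06).

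Of the laminins, Lama4 rose and 3 other chains fell. Lama4 went from 2.23 to 7.69 (median 3.32) to 7.95 to 26.1 (median 17.9) CPM (log2 fold change 2.13 ± 0.30 (SE), adjusted p = 1.66e-05), while Lama5, the alpha chain of epithelial and adult vessel laminins, went from 17.8 to 35.9 (median 26.7) to 0.117 to 5.0 (median 3.56) (log2 fold change -3.23 ± 0.57 (SE), adjusted p = 0.000141). Neither gene overlapped between stages. Lamb1, the beta chain of embryonic laminins, fell from 12.1 to 32.7 (median 22) to 1.59 to 14 (median 7.68) CPM (log2 fold change -1.62 ± 0.41 (SE), adjusted p = 0.0028), and Lamc1 from 58.2 to 84.1 (median 73.9) to 23.2 to 41.2 (median 32.9) (log2 fold change -1.19 ± 0.15 (SE), adjusted p = 4.55e-06). The Lamc1 libraries did not overlap and the Lamb1 libraries did. Lamb2 changed less, from 35.4 to 62.2 (median 45.5) to 13.5 to 49.2 (median 23.9) CPM (log2 fold change -0.82 ± 0.24 (SE), adjusted p = 0.00754), under the fold threshold.

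**Figure D2:**
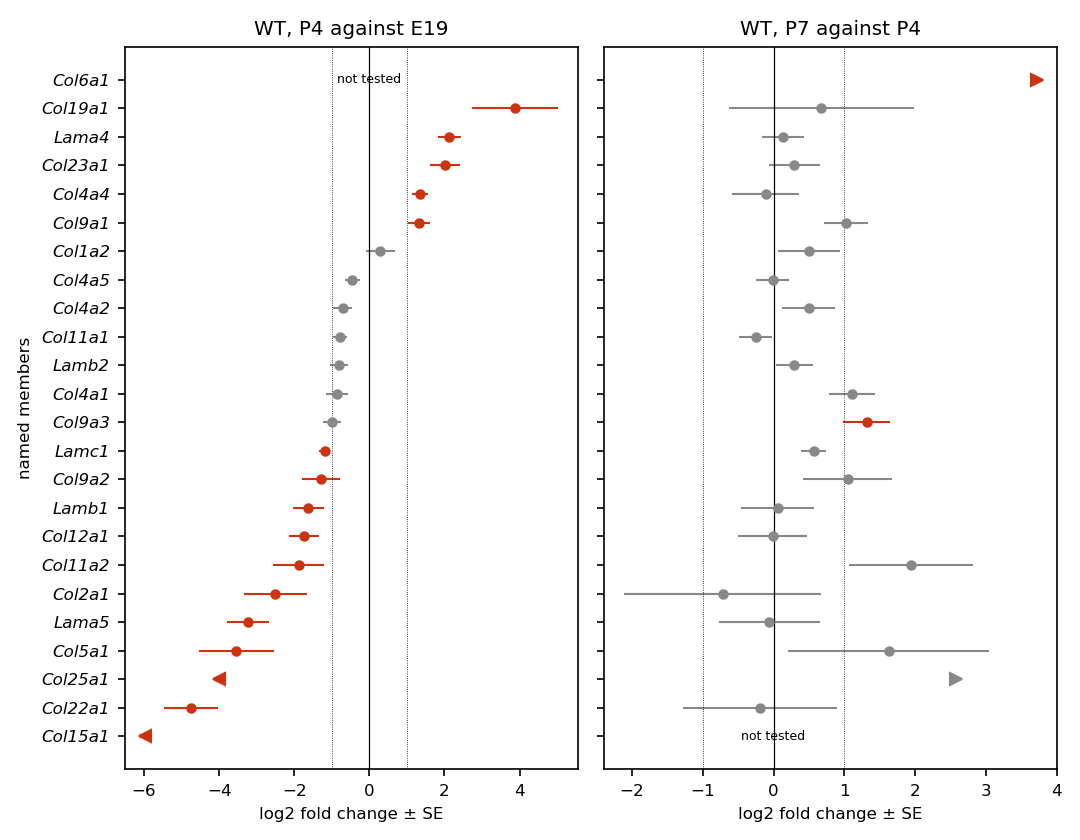
Log2 fold change ± SE of the 24 named members in WT neurons, P4 against E19 on the left and P7 against P4 on the right, with called members in red, dotted lines at an absolute log2 fold change of 1 and triangles at the lower bound of the fold where a stage had 0 counts in every library. On the left 5 members are called higher and 11 lower, and on the right Col9a3 and Col6a1 are called higher.

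The cell type markers moved between these stages as well. Of endothelial markers 11 of 11 tested were called higher at P4, of ciliated ependymal markers 7 of 8, of astrocyte and radial glia markers 6 of 10 (with 2 lower), of oligodendrocyte lineage markers 5 of 8 (1 lower) and of mural markers 4 of 12 (2 lower). Leptomeningeal markers were higher for 2 of 5, microglia for 2 of 10 and interneurons for 2 of 8, with 0, 1 and 2 lower, while 8 of 10 upper-layer neuron markers were lower. Their part in the changes of the collagens and laminins was not tested, and in bulk samples fewer cells of a type and less RNA per cell cannot be told apart. Leaving out 1 library at a time gave 15 to 22 calls. Col11a2 was not called without WT P4 female 1 or 3, and Col9a2 not without WT E19 female 3 or 4, WT E19 male 1, 3 or 4, WT P4 female 1 or 3, or WT P4 male 2, where its adjusted p was 0.0517 to 0.0752.

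The genes that make, process and bind these chains changed in both directions over the same interval. Of 48 such genes, 45 were tested, 12 rose and 15 fell, where 45.9% of all tested genes were called in either direction. Among enzymes and chaperones of modification and processing, 7 of 25 rose and 8 fell. The furthest fall of all was that of Adamts2, the procollagen N-proteinase, from a mean of 61.7 CPM at E19 to 0.30 at P4 (log2 fold change -8.19 ± 0.79 (SE), adjusted p = 3.26e-07). Tll1, a procollagen C-proteinase, fell from 0.453 CPM (log2 fold change -5.64, adjusted p = 0.000147). That estimate puts its P4 level under the floor of 3 counts, so the size of the fall is not known. Of 6 basement membrane partners, 2 rose, Nid1, the nidogen that bridges laminin and collagen IV (log2 fold change 2.13 ± 0.34 (SE), adjusted p = 5.31e-05), and Sparc, a collagen-binding matricellular protein (2.10 ± 0.15 (SE), adjusted p = 1.44e-08), and 3 fell, Ntn4, Agrn and Hspg2, encoding netrin-4, agrin and perlecan, named after their values were seen. Of 14 receptors, 3 rose, led by the collagen-binding integrin subunit Itga1 (log2 fold change 2.72 ± 0.46 (SE), adjusted p = 0.000107), and 4 fell, led by the laminin-binding subunit Itga3 (-4.41 ± 0.69 (SE), adjusted p = 4.71e-05).

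From P4 to P7, Col9a3 and Col6a1 were the WT members that passed, and both were higher at P7. Of 45 tested, 2 were called, both higher, where 2.05% of all tested genes were called, and 9 had an unadjusted p under 0.05, all higher, which is a smaller share than the 22% of all genes. The median log2 fold change of the members was 0.57, against 0.02 over all genes. Col9a3 stood at 26.5, 34.1 and 13.3 CPM in WT females and 32.7, 37.7 and 13.5 in WT males at P4. At P7 it was at 46.1 and 86.3 CPM in females and 40.0, 84.1 and 73.4 in males. All P7 libraries lay above all P4 libraries (log2 fold change 1.31 ± 0.34 (SE), adjusted p = 0.048). Col6a1, a chain of the beaded-filament collagen VI, had 0 counts in all 6 P4 libraries and 2.24 and 0.945 CPM in females and 1.39, 0.358 and 0.43 in males at P7, at least 13.2-fold higher (adjusted p = 0.0197). Col4a1, at 11.3 and 34 CPM in females and 39.6, 27.5 and 57.2 in males at P7, and Col9a1, at 21.4 and 12 CPM in females and 27.8, 27.9 and 20.6 in males, had log2 fold changes of 1.11 and 1.02 but did not pass (adjusted p = 0.0767 and 0.085). Both overlapped the P4 libraries. Lamc1, at 42 and 48.8 CPM in females and 43.8, 45.1 and 59.9 in males at P7, lay above every P4 library without passing (log2 fold change 0.57 ± 0.18 (SE), adjusted p = 0.0866). Lama4 (0.13, adjusted p = 0.861) and Col1a2 (0.50, adjusted p = 0.585) did not pass either. Of the partner genes, 1 of 46 passed, Plod1, a lysyl hydroxylase, which was higher at P7 (log2 fold change 1.03 ± 0.15 (SE), adjusted p = 0.00717) and was not called without WT P4 female 3 or WT P7 female 2. Microglia markers were called higher at P7 for 9 of 10 genes, oligodendrocyte lineage markers for 4 of 8, astrocyte and radial glia markers for 3 of 10, mural markers for 1 of 12 and endothelial markers for 0 of 12, and their part in these values was not tested. Without WT P7 female 1 or 2 or WT P7 male 2 neither Col9a3 nor Col6a1 was called, and without any single P4 library or WT P7 male 3 Col6a1 alone was called. Without WT P7 male 1 both were.

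No collagen or laminin passed the test between WT females and males. None of 36 tested was called at E19 (here with a log2 fold change beyond 0.5, 0.0461% of all genes), none of 32 at P4 (0.0%) and none of 43 at P7 (0.0247%). At P4 the test called 0 of 19213 genes, so this result does not show that the sexes were alike. The study, with DESeq2, reported genes that differed at P4, a minority of them sex-linked and the majority higher in males. Among those higher in males it found genes of extracellular matrix organization and cell adhesion enriched, and named Nid1 as one of them. The members with an unadjusted p under 0.05 numbered 1, 1 and 6, or 2.78, 3.12 and 14%, where all genes gave 3.67, 7.28 and 4.36%, and DESeq2 without prior also called 0 at each stage. At P4, 24 of the 32 tested members had lower estimates in females, with a median log2 difference of -0.48 against -0.01 over all genes. Col4a1 was at 9.7, 14.5 and 5.28 CPM in WT females and 19.4, 23 and 18 in WT males at P4, and the 3 female libraries lay below the 3 male ones without passing (log2 difference -1.03 ± 0.40 (SE), adjusted p = 0.675). Summed endothelial markers stood lower in the same females, at 68.2 to 94.6 CPM against 139 to 268, as did mural markers, at 169 to 215 against 323 to 494, and oligodendrocyte lineage markers, at 738 to 1963 against 2449.8 to 3376. Interneuron markers stood higher, at 609 to 1175 CPM against 352 to 551. The part of these in the estimates was not tested.

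In P4 males, 3 members were lower in Cux1 KO than in Cux2 KO neurons, the collagen IX chains Col9a1 and Col9a2 and the laminin chain Lama5 (2.98% of all genes were called), and none passed against WT (0.0% of all genes). The test against WT called 0 of 19601 genes, so this result does not show that Cux1 KO and WT were alike. The study, with DESeq2, reported changed genes in that comparison. The comparisons share the 2 Cux1 KO libraries. The sequences upstream of these 3 genes are shown because the genes were called together in Cux1 KO. CUX1 was named for displacing factors from CCAAT boxes, and CUX homeodomain proteins are known to bind ATCGAT and its variant ATCAAT. Each line is the 250 bases before the start of the canonical transcript in GENCODE M39 (GRCm39), read from the reference 5′ to 3′ on the strand of the gene, in lower case, with matches to any of these 3 motifs, searched on both strands, in capitals. The windows are chr1:24216441-24216690 (plus strand), chr4:120896332-120896581 (plus strand) and chr2:179867713-179867962 (minus strand).
Col9a1: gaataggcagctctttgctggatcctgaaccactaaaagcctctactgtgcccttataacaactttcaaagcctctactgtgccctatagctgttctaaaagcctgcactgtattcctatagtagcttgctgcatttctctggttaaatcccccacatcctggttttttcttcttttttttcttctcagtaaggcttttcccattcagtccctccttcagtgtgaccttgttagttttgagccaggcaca
Col9a2: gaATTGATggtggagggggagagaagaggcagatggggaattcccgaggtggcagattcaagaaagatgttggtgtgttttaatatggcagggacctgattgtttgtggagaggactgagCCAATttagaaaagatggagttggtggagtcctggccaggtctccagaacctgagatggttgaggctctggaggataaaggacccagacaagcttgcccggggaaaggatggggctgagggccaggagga
Lama5: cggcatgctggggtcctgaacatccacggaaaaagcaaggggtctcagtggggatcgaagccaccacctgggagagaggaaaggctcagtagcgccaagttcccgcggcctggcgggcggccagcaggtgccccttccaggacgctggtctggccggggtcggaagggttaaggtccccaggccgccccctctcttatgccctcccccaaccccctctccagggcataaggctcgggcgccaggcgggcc
Col9a2 alone of the 3 held a match, CCAAT at -130 and, on the other strand, ATCAAT at -248, counted from the start site. ATCGAT reads the same on both strands, and no matches overlapped one another in this window. CCAAT was found in the same window of 36.5% of 21757 protein-coding genes, ATCGAT in 0.8% and ATCAAT in 6.5%, and in 17, 0 and 2 of the 54 collagen and laminin genes. A match is a description of these letters and no match says only that they are not in this window.

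Against Cux2 KO males, 3 of the 39 members tested were called, all lower in Cux1 KO, which is 7.69% of them, against the 2.98% of all genes. Col9a1 was at 0.0502 and 0.0232 CPM in the Cux1 KO libraries, 8.33, 36.2 and 25.5 in the Cux2 KO and 17.7, 15 and 8.4 in the WT libraries. With 1 count in each Cux1 KO library, it was 845-fold lower (95% counting interval 234 to 6978) than in Cux2 KO and 415-fold lower (95% counting interval 115 to 3425) than in WT. Both Cux1 KO libraries lay below every other library. The adjusted p was 0.0491 against Cux2 KO and 0.0764 against WT.

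Col9a2 had 0 counts in both Cux1 KO libraries. It was at 3.86, 3.73 and 2.44 CPM in the Cux2 KO and 6.4, 3.65 and 0.146 in the WT libraries, 1 of the WT libraries being close to 0. It was at least 30.4-fold lower than in Cux2 KO (adjusted p = 0.0491) and at least 30.9-fold lower than in WT (adjusted p = 0.167), by the floor of 3 counts per library. Col9a3, the collagen IX chain with the highest level, was still counted in Cux1 KO, at 15.9 and 11.3 CPM against 37.7, 50.4 and 24.2 in Cux2 KO and 32.7, 37.7 and 13.5 in WT. It lay below every Cux2 KO library (log2 fold change -1.46 ± 0.42 (SE), adjusted p = 0.116) but overlapped WT (log2 fold change -1.05 ± 0.56 (SE), adjusted p = 0.342), and passed in neither.

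Lama5 was counted 0 and 1 times in the 2 Cux1 KO libraries. Its level was 2.87, 5.59 and 4.38 CPM in Cux2 KO and 5.0, 4.46 and 0.117 in WT, where again 1 library was near 0. It was 293-fold lower (95% counting interval 52.3 to 11581) than in Cux2 KO (adjusted p = 0.0491) and 178-fold lower (95% counting interval 31.8 to 7052) than in WT (adjusted p = 0.174). Lamb1, the beta chain of embryonic laminins, was at 1.21 and 0.417 CPM in Cux1 KO, 9.81, 16 and 8.01 in Cux2 KO and 14, 7.97 and 7.39 in WT. The groups did not overlap, but the adjusted p was 0.0657 against Cux2 KO (log2 fold change -3.80 ± 0.78, SE) and 0.106 against WT (-3.61 ± 0.86). Lama4 was at 15.9 and 3.5 CPM in Cux1 KO, 23.1, 27.6 and 19.9 in Cux2 KO and 26.1, 17.6 and 18.1 in WT, also without overlap and without passing (adjusted p = 0.331 and 0.456). Lamc1, the shared gamma chain, overlapped both groups, at 33 and 17.7 CPM against 31.6, 39.2 and 30.9 and 37.4, 36.1 and 29.7.

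The collagen IV pair was counted unequally in the Cux1 KO libraries. Col4a2 was counted 0 and 1 times there, while Col4a1, its head-to-head neighbour and trimer partner, was counted 171 and 25 times. Col4a2 stood at 7.1, 29.2 and 6.2 CPM in Cux2 KO and 22.2, 14.2 and 17.6 in WT, so the Cux1 KO level was 1195-fold lower (95% counting interval 214 to 47216) and 1159-fold lower (95% counting interval 208 to 45803). It narrowly missed the test against Cux2 KO (adjusted p = 0.0507) and missed it against WT (adjusted p = 0.0764). Col4a1 was at 8.59 and 0.579 CPM in Cux1 KO against 5.68, 38.1 and 14.8 in Cux2 KO, with overlap, and 19.4, 23 and 18 in WT, without overlap, and did not pass (adjusted p = 0.425 and 0.344). Col4a4 was at 11.8 and 6.02 CPM against 29.2, 22.1 and 44.7 and 26.7, 18.4 and 28.4, below both groups without passing (adjusted p = 0.104 and 0.186).

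**Figure D3:**
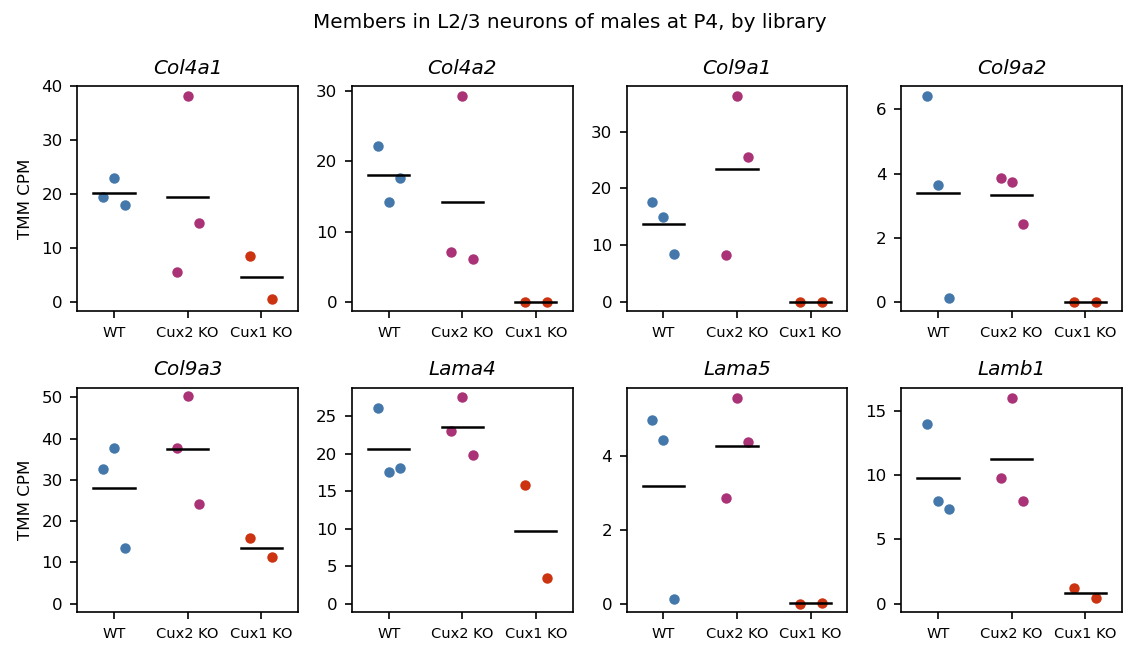
CPM of 8 collagens and laminins in each P4 male library, WT (n = 3), Cux2 KO (n = 3) and Cux1 KO (n = 2), with points for libraries and lines for group means, each panel on its own axis from 0. Col4a2, Col9a1, Col9a2 and Lama5 sit at or near 0 in both Cux1 KO libraries, while Col9a3 stays at 15.9 and 11.3 CPM.

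Not all members were lower. Col19a1 was at 15.1 and 5.88 CPM in Cux1 KO, above the 2.1, 3.15 and 3.29 of the Cux2 KO libraries (log2 fold change 1.89 ± 0.59 (SE), adjusted p = 0.135) and overlapping the 8.74, 2.18 and 0.92 of WT. Col22a1 was at 3.01 and 1.58 CPM, above the WT libraries at 1.26, 0.177 and 0 but not above those of Cux2 KO at 3.15, 0.525 and 1.35. Col23a1, at 10.2 and 28.2 CPM against 9.66, 22.4 and 18.5 and 19.1, 5.09 and 6.43, and Col12a1, at 5.73 and 8.11 against 6.63, 15.1 and 16.9 and 1.35, 8.61 and 7.96, overlapped other groups. Col1a2 was at 6.18 and 4.29 CPM, below Cux2 KO at 9.5, 14.8 and 15.6 (adjusted p = 0.157) and overlapping WT at 19.1, 4.94 and 30.0.

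Over all members tested, the median log2 fold change was -2.09 against Cux2 KO and -1.45 against WT, where all genes had medians of -0.16 and -0.18. Against Cux2 KO, 18 of 39 had an unadjusted p under 0.05, 17 of them lower, a share of 46.2% where all genes gave 24.9%. Against WT, none of 34 was called by edgeR, which called 0 of 19601 genes (0.0%) in this comparison. Of the 34, 9 had an unadjusted p under 0.05, all lower (26.5% against 20.5% of all genes). DESeq2 called 6 members with shrinkage by its prior and 9 members without it. The share of all genes that DESeq2 called is not given here, so its counts are not set against the rest. Both Cux1 KO libraries lay below every Cux2 KO library for 21 members (53.8%, against 27.3% of all genes) and above for 1 (against 18.4%). They lay below every WT library for 13 (38.2%, against 23.1%) and above for 1 (against 18.6%). Both were at 0 counts, with more than 3 counts in every library of the other group, for 8 members against Cux2 KO (20.5%, all genes 5.82%) and for 3 against WT (8.82%, all genes 3.77%). Among the members at 0 in this way were Col11a2, Col28a1, Col5a1, Col5a3, Col6a4, Col8a2 and Col9a2 against Cux2 KO, and Col11a2, Col3a1 and Col9a2 against WT, of which those outside the named genes were chosen after their values were seen. By family, lower estimates than in Cux2 KO were found for 9 of 10 fibrillar collagens, 5 of 6 collagen IV chains, 4 of 7 fibril-associated collagens, 2 of 2 beaded-filament collagens, 0 of 1 transmembrane collagens, 3 of 5 laminin alpha chains, 3 of 3 beta chains and 2 of 2 gamma chains. In the same order, lower estimates than in WT were found for 9 of 9, 6 of 6, 3 of 7, 1 of 2, 0 of 1, 2 of 4, 2 of 2 and 1 of 1, the other fibril-associated, transmembrane, beaded-filament and laminin alpha chains being higher.

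The same 2 libraries were low in markers of several other cell types. Endothelial markers summed to 13.2 to 46.5 CPM in Cux1 KO, 63.8 to 185 in Cux2 KO and 139 to 268 in WT males, and 4 of the 12 (Emcn, Erg, Tek and Tie1) had 0 counts in both Cux1 KO libraries. Mural cell markers summed to 48.3 to 112 CPM against 281 to 602 and 323 to 494, with Anpep and Kcnj8 at 0. Leptomeningeal fibroblast markers summed to 47.1 to 102 CPM against 51.6 to 88.2 and 36.9 to 52.8, with 8 of 12 at 0 in Cux1 KO (Aldh1a2, Dcn, Foxc1, Foxd1, Igf2, Ogn, Slc6a13 and Twist1) and 4 in WT. Microglia markers summed to 16.7 to 21.4 CPM against 73.9 to 162 and 45.2 to 92.8, ciliated ependymal markers to 3.03 to 4.77 against 208 to 359 and 46.5 to 123, and interneuron markers to 82 to 162 against 204 to 568 and 352 to 551. Oligodendrocyte lineage markers summed to 1281 to 1404 CPM against 2016 to 3171 and 2449.8 to 3376, without overlap. Upper-layer neuron markers stood higher, at 1434 to 1933 CPM against 848 to 1354 and 865 to 1098, and astrocyte and radial glia markers, at 5711 to 8656 CPM, overlapped the 5104 to 9347 and 4759.6 to 6545 of the others. The part of these cell types, and of the low number of genes detected, in the levels of collagens and laminins was not tested. Both Cux1 KO libraries stand apart in this way, so no comparison could be made without them. Leaving out any 1 of the 3 Cux2 KO libraries removed all 3 calls against Cux2 KO. Fits without a Cux1 KO library rest on 1 sample of that group, so their calls are not given.

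**Figure D4:**
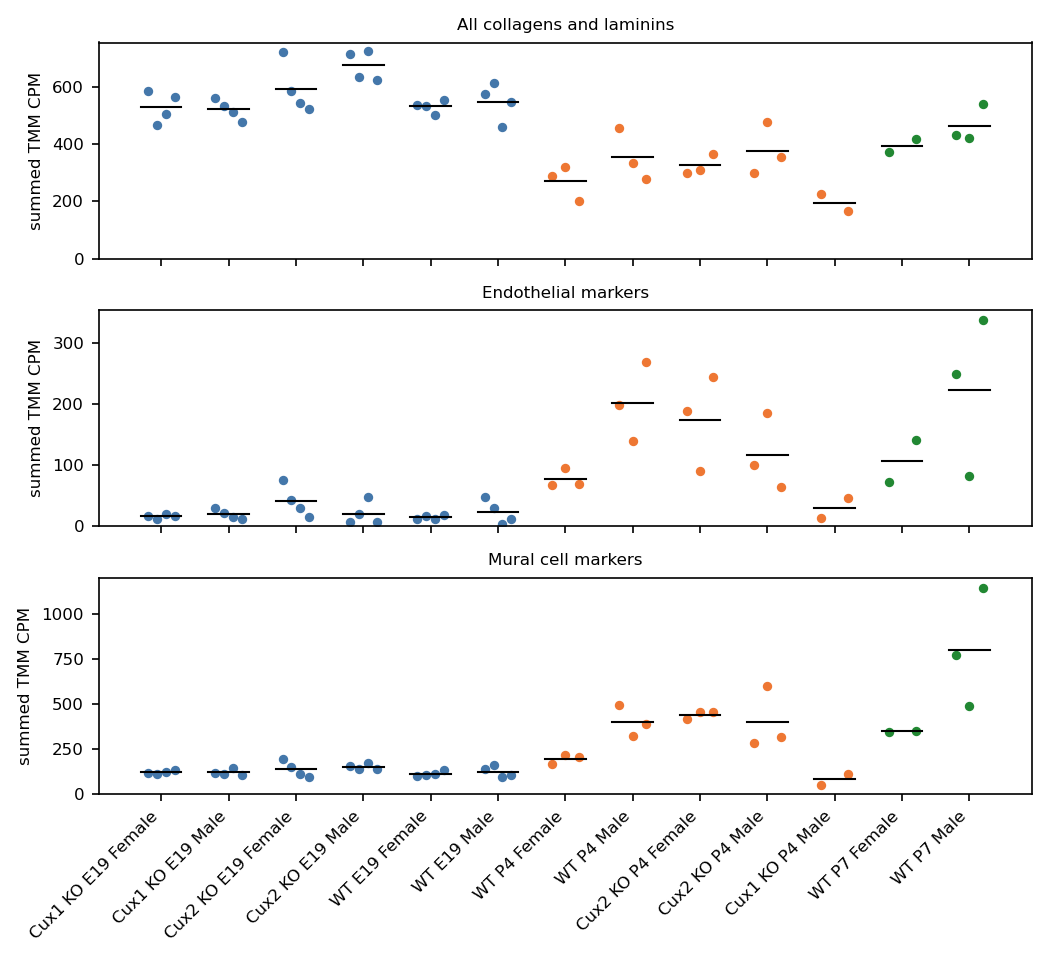
Summed CPM in every library of all 54 collagens and laminins (top), of 12 endothelial markers (middle) and of 12 mural cell markers (bottom), by group, with points for libraries, lines for group means and colours for stage. In Cux1 KO males at P4 the 3 sums are 165 to 226, 13.2 to 46.5 and 48.3 to 112 CPM, and over all E19 libraries the endothelial sums are 4.1 to 76 CPM.

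Of the partner genes, 7 of 43 tested were called lower in Cux1 KO than in Cux2 KO males at P4 and none higher. Over all genes, 2.98% were called in either direction. Nid1 and Pcolce2, the latter an enhancer of procollagen processing, had 0 counts in both Cux1 KO libraries and were at least 162-fold and 36.7-fold lower. The integrin subunit Itga3 was also at 0 and at least 29.6-fold lower. The other 4, named after their values were seen, were Ntn4, a netrin that binds laminins, the collagen receptor genes Ddr1 and Itga2, and P3h1, a prolyl hydroxylase of collagens, of which Ddr1 went from a mean of 64.3 to 8.25 CPM (log2 fold change -2.96 ± 0.24 (SE), adjusted p = 0.0491). All 7 had an adjusted p of 0.0491 to 0.0498, and none of the 7 was called when any 1 of the 3 Cux2 KO libraries was left out. Against WT, 0 of 43 were called (0.0% of all genes) and 13 had an unadjusted p under 0.05 (20.5% of all genes).

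At E19, no collagen or laminin passed the test in the germline Cux1 KO, where the lowest adjusted p over both sexes belonged to the laminin chains Lamb1 and Lamc1. No member was called in females (0 of 36, 0.0576% of all genes), in males (0 of 35, 0.0979%) or in both sexes together (0 of 39, 0.24%), and DESeq2 without prior called 1, 0 and 2. At an unadjusted p under 0.05 there were 6, 5 and 10, of which 7 of the last were lower. Their shares were 16.7, 14.3 and 25.6%, where all genes gave 6.87, 10.4 and 12.6%. The KO comparisons of a stage share their WT libraries. Lamb1 ranged over 9.3 to 22.1 CPM (median 11.6) in 8 Cux1 KO libraries and 12.1 to 32.7 CPM (median 22) in 8 WT libraries, which overlap (log2 fold change -0.71 ± 0.19 (SE), adjusted p = 0.115). In females alone it was at 13.8, 10.5, 10.6 and 9.3 CPM against 20.6, 26.8, 12.3 and 23.4 (log2 fold change -0.90 ± 0.21 (SE), adjusted p = 0.304). It was called when WT female 3 was left out of that comparison, and for both sexes when Cux1 KO male 1 or WT male 4 was. Lamc1, the partner chain, ranged over 48.3 to 73.2 CPM (median 58.6) and 58.2 to 84.1 CPM (median 73.9), a smaller difference (log2 fold change -0.30 ± 0.08 (SE), adjusted p = 0.115).

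Of the collagens, Col9a1 ranged over 0.797 to 3.53 CPM (median 2.56) in Cux1 KO and 2.52 to 6.65 CPM (median 3.92) in WT at E19 (log2 fold change -0.78 ± 0.25 (SE), adjusted p = 0.186). In males the 4 Cux1 KO libraries, at 2.5, 0.797, 2.23 and 1.76 CPM, lay below the 4 WT libraries, at 3.61, 4.24, 2.92 and 6.65 (log2 fold change -1.28 ± 0.37 (SE), adjusted p = 0.28). In females the groups overlapped, at 3.08, 2.62, 2.82 and 3.53 against 2.52, 3.15, 4.83 and 4.33 CPM. Col9a2 (-0.09 ± 0.20), Col9a3 (-0.13 ± 0.14) and Lama5 (0.14 ± 0.14) had log2 fold changes (± SE) that did not pass. Col4a1 (-0.06 ± 0.18) and Col4a2 (-0.04 ± 0.14) did not pass either. Col2a1 ranged over 11.6 to 26.5 CPM (median 21.5) against 9.12 to 21.8 CPM (median 12.5), with a higher estimate (log2 fold change 0.58 ± 0.17 (SE), adjusted p = 0.143). Col1a2 ranged over 4.91 to 9.18 CPM (median 6.36) against 6.24 to 14.7 CPM (median 8.5) (log2 fold change -0.51 ± 0.18 (SE), adjusted p = 0.234), and Lama4 over 1.3 to 4.88 CPM (median 2.54) against 2.23 to 7.69 CPM (median 3.32) (log2 fold change -0.58 ± 0.27 (SE), adjusted p = 0.381). Of the partner genes Adamts2 alone was called, lower in Cux1 KO females (log2 fold change -1.14 ± 0.18 (SE), adjusted p = 0.0431) and in both sexes together (-0.74 ± 0.16 (SE), adjusted p = 0.0474). In females it was called only without Cux1 KO 2, WT 1 or WT 3 among fits with 1 library left out, and in both sexes only without Cux1 KO male 1 or 2, WT female 1 or 3, or WT male 4.

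In Cux2 KO at E19, collagen and laminin estimates were mostly higher than in WT, and none passed. In both sexes together 31 of 40 members tested had higher estimates, with a median log2 fold change of 0.27 against 0.00 over all genes, and 0 were called (0.109% of all genes). The 6 with an unadjusted p under 0.05 (15%, all genes 8.75%) were all higher, the smallest adjusted p was 0.465, and DESeq2 without prior also called 0. Leaving out 1 of the 16 libraries at a time kept the median between 0.21 and 0.32. In females 23 of 36 and in males 27 of 38 had higher estimates, with 5 and 7 at an unadjusted p under 0.05, all higher (13.9 and 18.4%, all genes 4.62 and 7.94%), and 0 called in each (0.0287% and 0.121% of all genes). Col4a1 was at 73.2, 40.9, 33.3 and 22.1 CPM in Cux2 KO and 20.9, 30.1, 22.5 and 23.1 in WT females, with overlap (log2 fold change 0.82 ± 0.28 (SE), adjusted p = 0.91). Col4a2 was at 55.7, 33.1, 26.2 and 25 against 22, 24.9, 14.5 and 20.6 CPM, without overlap (log2 fold change 0.78 ± 0.24 (SE), adjusted p = 0.769). Endothelial markers summed to 15.2 to 76 CPM in these Cux2 KO libraries and 11.1 to 18.3 in WT, the highest in the library with the highest Col4a1, and their part in this was not tested. Without that library the median log2 fold change in females went from 0.14 to 0.09, and in both sexes from 0.27 to 0.23. In males Lama5 was at 36.4, 38.3, 38.7 and 38.5 CPM in Cux2 KO, above the 25.3, 33.6, 17.8 and 28.1 of WT (log2 fold change 0.52 ± 0.17 (SE), adjusted p = 0.519), and Col4a4 at 13.9, 13.7, 15.1 and 14.1 lay above 5.19, 12.3, 9.81 and 7.87 (log2 fold change 0.67 ± 0.23 (SE), adjusted p = 0.524).

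**Figure D5:**
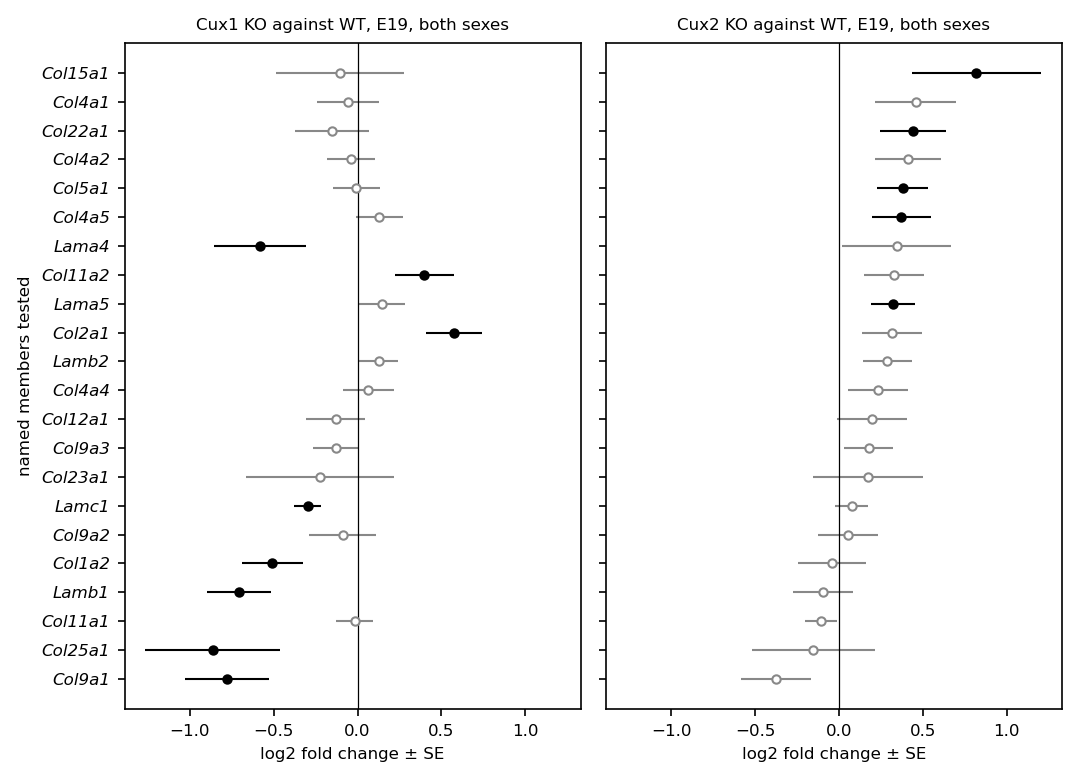
Log2 fold change ± SE of the 22 named members tested at E19, Cux1 KO against WT on the left and Cux2 KO against WT on the right, 8 libraries per genotype, with filled points for an unadjusted p under 0.05. No member passed after adjustment. Most estimates on the right lie above 0, and on the left Lamb1 is at -0.71 and Col2a1 at 0.58.

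At P4, no collagen or laminin passed between Cux2 KO and WT. None was called in females (0 of 33, 0.0% of all genes), in males (0 of 37, 0.0%) or in both (0 of 42, 0.0503%), with 2, 1 and 1 at an unadjusted p under 0.05 (6.06, 2.7 and 2.38%, all genes 7.39, 5.76 and 6.28%) and 1, 1 and 0 called by DESeq2 without prior. In females the test called 0 of 19538 genes and in males 0 of 19720, so these results do not show that the genotypes were alike. The study, with DESeq2, reported changed genes in each sex. In both sexes together 32 of the 42 members had higher estimates, at a median log2 fold change of 0.18 against 0.02 over all genes. Col9a1 ranged over 8.33 to 36.2 CPM (median 18.6) in 6 Cux2 KO libraries and 3.15 to 17.7 CPM (median 9.3) in 6 WT libraries, which overlap (log2 fold change 0.95 ± 0.38 (SE), adjusted p = 0.685). In females alone the 3 Cux2 KO libraries, at 20.7, 11.3 and 16.4 CPM, lay above the 3 WT libraries, at 9.09, 9.5 and 3.15, without passing (adjusted p = 0.664). No member passed a test of whether the effect of a KO differed between the sexes. The interaction of genotype and sex called 0 members for Cux1 KO at E19 (0.0% of all genes), Cux2 KO at E19 (0.0%) and Cux2 KO at P4 (0.0%), with 2, 3 and 3 at an unadjusted p under 0.05 (5.13, 7.5 and 7.14%, all genes 3.81, 3.78 and 7.27%), and DESeq2 also called 0 in each.

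Across the 19 WT libraries, the genes whose log2 CPM followed the marker chains most closely differed from chain to chain. For Lama4 they were Sox7 (Pearson r = 0.964), Fzd10os (Pearson r = 0.959), Igfbp7 (Pearson r = 0.959), Flt1 (Pearson r = 0.957) and Slc22a8 (Pearson r = 0.956), a set that holds the endothelial genes Sox7 and Flt1. For Col4a1 the closest was its neighbour Col4a2 (r = 0.795), which shares bases with it, and the next included Arhgap27 (0.77) and Ptprj (0.765). For Col1a2 they were Gphn (r = 0.838), Cast (r = 0.807), Rrh (r = 0.803), Tifab (r = 0.799) and P2ry2 (r = 0.783). These libraries span 3 stages and 2 sequencing rounds, which the points share, so the coefficients are descriptions only.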

How the data were processed

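RNA-seq was measured in 43 libraries, each from 300 pg of RNA of sorted GFP+ cells, prepared with the NEBNext low input kit and read as 60-nucleotide single-end reads. The authors aligned reads to GRCm39 with hisat2 (Y chromosome masked for females), removed reads duplicated above a threshold of 50, and deposited raw counts per gene from featureCounts on Ensembl release 108, without normalization. DESeq2, HISAT2 and featureCounts are also named in the submitters' processing notes, and the strand setting is not given in the sources used here. No use of UMIs is stated, so counts may include PCR copies. GENCODE M39 held 56236 of the 56980 identifiers.

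Groups were compared with edgeR 4.0.16 (R 4.3.3), by the two-sided quasi-likelihood test after TMM normalization and filterByExpr, with only the compared groups in the fit (sex as a covariate where both sexes entered) and Benjamini-Hochberg adjustment over all genes tested. Calls needed an adjusted p under 0.05 and, in either direction, a log2 fold change beyond 0.5 for E19 groups and beyond 1 for all others, as in the study, whose own tool was DESeq2. Interactions had no fold threshold. Levels are TMM CPM over all 43 libraries, and log2 CPM were taken after adding a prior of 2 counts. Library totals of 13321095 to 20715732 at E19, 19499125 to 60559585 at P4 and 15312029 to 27633827 at P7 set the floor of 3 counts. A group at 0 in every library is given a lower bound from that floor, and 1 to 3 counts a ratio of summed counts with an exact conditional 95% interval. In all, 28 members were tested in all 19 comparisons and 6 in none. No pair of libraries was a duplicate (lowest chi-square per degree of freedom 7.79). Named are Col4a1, Col1a2 and Lama4, members called in any comparison and the 10 highest per kb in WT at each stage, 24 in all. Partner genes are named where called and among the 3 of largest absolute log2 fold change per direction. The members, gene lists and tests were chosen with earlier results of these data known. Alternatives were DESeq2 1.42.0 with and without its log2 fold change prior, edgeR with size factors from DESeq2, edgeR without the filter, a fit to every group of the stage, the replicate number as a block and leaving out each library, the last also added for both sexes at E19 after seeing the data. A few genes are not reported here by name. Motifs were searched with Python 3.11.15.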

Additional observations from a re-analysis of the deposited data

Results flagged for a closer look

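In 11 of 144 sets of 4 libraries (7.64%) 1 E19 library stood apart from the other 3 of its group, by its gap to the nearest of them over the range of the group. Chance gives about 1 in 20 for normally spread values only. Where the other 3 libraries are at 0, as for Col19a1, the gap equals the range by construction. The ratio does not measure the size of a difference, which was small for Lama5. Col11a1 stood at 57.3 CPM in Cux1 KO E19 male 1, above the other 3 libraries of its group at 35.7 to 38.4. Col19a1 was at 0.062 CPM in Cux1 KO E19 female 4, above the other 3 libraries of its group at 0. Col19a1 was counted at 0.0621 CPM in Cux1 KO E19 male 3, above the other 3 libraries of its group at 0. Col19a1 reached 0.309 CPM in WT E19 female 4, above the other 3 libraries of its group at 0. Col22a1 was at 19.5 CPM in Cux1 KO E19 female 4, below the other 3 libraries of its group at 28.5 to 29.9. Col23a1 stood at 5.38 CPM in WT E19 female 4, above the other 3 libraries of its group at 1.08 to 1.38. Col4a2 reached 37.5 CPM in Cux2 KO E19 male 3, above the other 3 libraries of its group at 21.8 to 22.8. Col4a5 was at 28.5 CPM in WT E19 female 3, above the other 3 libraries of its group at 16 to 17.3. Col6a1 reached 1.78 CPM in Cux2 KO E19 female 2, above the other 3 libraries of its group at 0.0505 to 0.221. Col9a3 stood at 66.7 CPM in Cux1 KO E19 female 1, above the other 3 libraries of its group at 38.3 to 41.6. Lama5 was at 36.4 CPM in Cux2 KO E19 male 1, below the other 3 libraries of its group at 38.3 to 38.7.
The Col19a1 values of 0.062 and 0.0621 CPM are 1 count each.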

How the results depend on the processing

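The number of members called changed most for Cux1 KO against Cux2 KO males at P4, where edgeR called 3, DESeq2 13 with its prior and 18 without, edgeR 6 with all P4 groups in one fit, 0 without the filter on low counts and 0 with a replicate block. Leaving out 1 library there gave 0 to 7. For Cux1 KO against WT males at P4 edgeR called 0, DESeq2 6 with its prior and 9 without, and edgeR 6 with all P4 groups. For Cux1 KO against WT at E19 in both sexes the count of 0 became 2 with DESeq2, 2 without the filter, 1 with the replicate block (Lamb1) and 0 to 1 with 1 library left out. For females alone 0 became 1 with DESeq2, with and without its prior, 1 without the filter and 0 to 1 with 1 library left out. For Cux2 KO at P4 DESeq2 without prior called 1 in females (Col14a1) and 1 in males where edgeR called 0. Between WT P4 and E19 the count of 16 became 25 with DESeq2 and 15 to 22 with 1 library left out, and between WT P7 and P4 the count of 2 became 5 with DESeq2, 1 with the replicate block (Col9a3) and 0 to 2 with 1 library left out. The causes were not tested. The shares of all genes called under these settings are not given, here or above, so these counts describe the dependence on processing only. All-groups fits and unfiltered fits also change how many genes are adjusted over. Of the single-gene results, 38 kept direction and call with DESeq2 without prior and 1 gained one, 37 kept both with DESeq2's size factors and 2 lost the call, and 28 and 11 did so without the filter. With the replicate block 23 kept both and 16 lost the call, and with all groups of the stage 13 and 2. With 1 library left out, 334 values kept both, 71 lost the call and 2 changed sign, neither of them called: Col1a2 between WT P4 and E19, with a range of -0.0714 (without WT P4 male 3) to 0.488, and Lama4 between WT P7 and P4, with a range of -0.045 (without WT P7 female 2) to 0.331. Samples with the same replicate number had residuals whose mean correlation lay between -0.0521 and 0.191, and no comparison of 3 or more pairs had all of its pairs over 0.1. WT females against males at P7, with 2 pairs, did (0.157 and 0.225). The numbers were therefore not used to pair samples in the main test, and pairing is not excluded. The replicate block moved no other count by over 1.5 times. Several chains had 0 or 1 count in the Cux1 KO libraries at P4, and a count of 0 there allows up to 3 counts.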

Other observations

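Several chains outside the named genes were measured in WT neurons. Lama2, the alpha chain of muscle and glial laminins, was at 18.2 to 29.4 (median 23) CPM at E19, 9.92 to 35.2 (median 15.1) at P4 and 5.07 to 15.8 (median 13) at P7. Lama1, the alpha chain of early embryonic laminins, was at 5.22 to 7.67 (median 6.8), 0 to 5.16 (median 0) and 0.179 to 4.66 (median 0.66) CPM, and had 0 counts in 4 of the 6 P4 libraries. Lama3, of epithelial laminins, was at most 0.644 CPM at E19, 0.414 at P4 and 1.43 at P7.

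Of the beaded-filament collagen VI chains, none reached a WT library level above 2.24 CPM, the value of Col6a1 at P7, and Col6a3, a chain of the trimer of Col6a1 and Col6a2, had 0 counts in all 5 P7 libraries. Col1a1, the main chain of collagen I, was at 0.143 to 1.18 (median 0.39) CPM at E19, 0 to 1.11 (median 0) at P4 and 0 to 2.77 (median 1.7) at P7. Col3a1, of collagen III in vessel walls and meninges, was at 0.0618 to 0.579 (median 0.475), 0 to 5.27 (median 1.71) and 0.645 to 7.13 (median 2.72) CPM. The collagen XVIII chain Col18a1, the precursor of endostatin, was at 2.65 to 9.95 (median 5.75), 0.0438 to 7.95 (median 0.978) and 1.04 to 4.01 (median 1.65) CPM. These genes were chosen after their values were seen.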
